A study of Phlebiopsis gigantea with 8 samples.

Results

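Cytochromes P450 are heme-thiolate monooxygenases, and the white-rot fungus *Phlebiopsis gigantea* has a large family of them. Members were chosen by annotation alone: a gene model was taken when its function name or its InterPro description in the deposited RPKM table read cytochrome P450 and neither read reductase. The rule found 134 of the 11892 gene models in the table. The family was followed in 8 cultures in 3 media, each of 250 ml basal salts and harvested on day 5. NELP was ground, freshly harvested loblolly pine wood that had been wetted with acetone and dried (3 cultures), ELP was the same wood after exhaustive acetone extraction and drying (3 cultures), and Glc held glucose as the only carbon source (2 cultures). Each culture was the mycelium of the same species and gave 1 poly-A RNA library, so p-values measure the spread between these cultures. ELP lacks what acetone removes from pine, mainly resin acids, triglycerides, fatty acids and other lipophilic extractives, and both wood media differ from Glc in every other component of wood.

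P450s activate molecular oxygen at a heme iron and put an oxygen atom into a substrate, usually as a hydroxyl group or an epoxide. Most fungal P450s sit in the endoplasmic reticulum and take their electrons from an NADPH-cytochrome P450 reductase, with cytochrome b5 as a second donor. They build sterols and secondary metabolites, and they also attack foreign compounds such as resin acids, terpenes, aromatic acids and lignin fragments. White-rot fungi have many more of them than yeasts, and for most the substrate is unknown.

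Annotation of the 134 genes was sparse. A function name was given for 28 of them, 3 were called hypothetical and 103 had none, and the InterPro description was the general cytochrome P450 domain in 110, E-class group I in 16 and E-class group IV in 5. Of the remaining genes, Phlgi1_37333 and Phlgi1_101881 carried a heme peroxidase domain, as the fused oxylipin-forming enzymes of fungi do. Phlgi1_98480 carried a flavodoxin-like domain, as in fatty acid hydroxylases whose P450 and reductase form 1 protein. Its automatic enzyme name was that of the reductase, and without it 133 genes would remain. An expression table in the study's supplement lists 24 genes with their CYP names, which fall into 6 for the oxidation of foreign compounds, 5 for triterpenoid synthesis, 3 for fatty acids and oxylipins, 3 for other hydroxylations and 7 with no known role. The study assigned roles from characterized relatives in other basidiomycetes, and the groups were formed here from those roles. The choice of these 24 genes may not be independent of these libraries. They are called CYP-named here, and CYP names that the study gives to other members of the family were not used here.

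P450 transcripts were detected for nearly the whole family. RPKM scales reads by gene length and by the size of the library, so levels may be compared between genes. It is a share of the library, and fewer hyphae that transcribe a gene cannot be told apart from less RNA per hypha. Reads were above 0 in every library for 125 genes and in some libraries for 7, and only Phlgi1_62263 and Phlgi1_60626 were listed at 0 in all 8. Mean levels ran from 0 to 477 RPKM in NELP, to 724 RPKM in ELP and to 169.7 RPKM in Glc. The median P450 gene had 9.77 RPKM in NELP, 10.7 RPKM in ELP and 7.11 RPKM in Glc, against 23.0, 23.6 and 15.2 RPKM for the median of all models in NELP, ELP and Glc. P450 transcripts were thus mostly of low to middling abundance in all 3 media. In NELP, 12 genes averaged 100 RPKM or more, 52 lay between 10 and 100, 60 between 1 and 10, and 10 under 1. ELP had 6, 63, 52 and 13 genes in these classes, and Glc had 4, 49, 71 and 10.

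**Figure D1:**
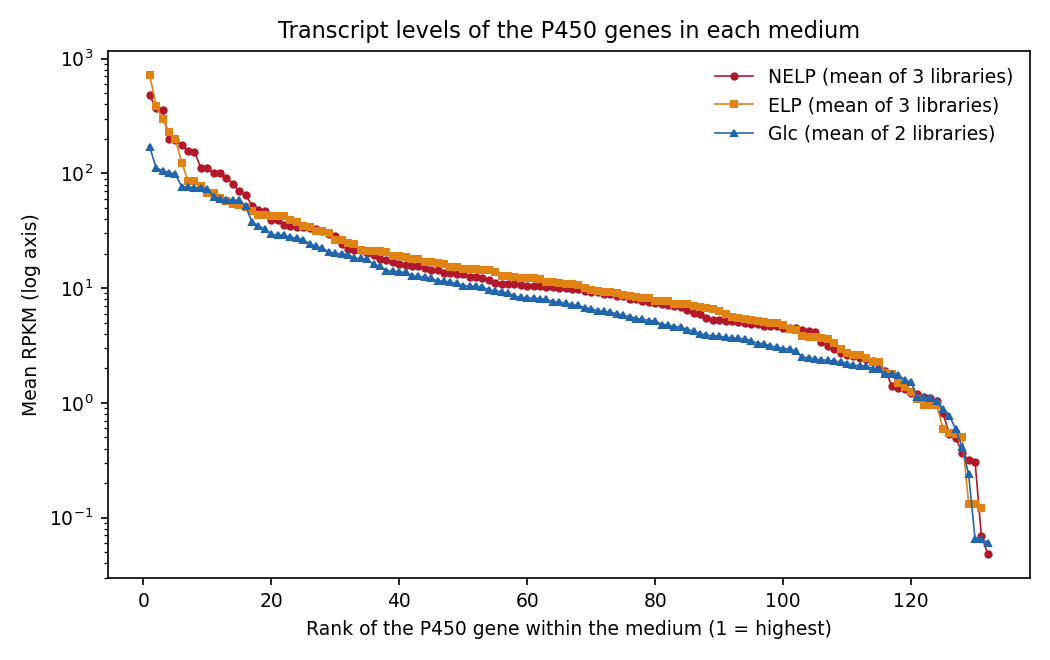
Mean RPKM of each P450 gene (log axis) against its rank within NELP, ELP and Glc; genes at 0 in a medium, 2 in NELP, 3 in ELP and 2 in Glc, are not drawn. The curves differ most at the top, where ELP reached 724 RPKM, NELP 477 RPKM and Glc 169.7 RPKM.

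A few genes carried much of the family's transcript. The summed RPKM of the 134 genes was 3614, 4579 and 4249 in the NELP libraries, 2846.5, 3466 and 5859 in the ELP libraries, and 2206 and 2466 in the Glc libraries. Every library from wood was above both from Glc, while NELP and ELP overlapped. The 5 highest genes held 38.5% of the mean sum in NELP, 45.4% in ELP and 25.1% in Glc, and the 10 highest held 55.6%, 56.3% and 41.2%. Scaling the libraries by the median ratio of all genes closed the gap, with sums of 3332, 4042 and 4095 for the NELP libraries, 2439, 3093 and 5293 for ELP, and 3393 and 3142 for Glc. The order of wood and glucose for the whole family therefore depended on the scaling.

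Both wood media were compared with Glc to ask which P450 genes responded to wood. A filter of a mean of at least 1 RPKM left 123 of the 134 genes, and log2(RPKM + 0.5) was tested with limma over all 10999 genes that passed it, with an adjusted p under 0.05 as the threshold. In NELP against Glc, 30 P450 genes were higher (24.4%, against 29.5% of all genes tested) and 3 were lower (2.44%, against 3.67%). In ELP against Glc, 43 were higher (35.0%, against 37.3%) and 6 were lower (4.88%, against 5.14%). The shares of P450 genes thus lay near those of all genes. The median log2 fold change in NELP was 0.51 over the P450 genes and 0.54 over all genes tested, and in ELP it was 0.67 and 0.60. Libraries that did not overlap gave a like picture. By that count 49 P450 genes lay higher in NELP than in Glc (39.8%, against 49.7% of all genes) and 8 lay lower (6.5%, against 7.84%), while 58 lay higher in ELP than in Glc (47.2%, against 51.4%) and 9 lay lower (7.32%, against 8.93%).

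The whole transcriptome was shifted towards wood in these values, and median-ratio scaling removed that shift: the median of all genes tested moved to -0.03 in NELP against Glc and to -0.03 in ELP against Glc. After that scaling, 9 P450 genes passed as higher and 7 as lower for NELP over Glc (7.32 and 5.69%, against 6.61 and 6.96% of all genes). For ELP over Glc, 12 passed as higher and 10 as lower (9.76 and 8.13%, against 10.8 and 11.4%). All 9 and all 12 were among the genes called higher before scaling. The libraries of Glc also lay far apart, and without Glc 2 NELP had 67 higher and 12 lower (against 48.7 and 11.0% of all genes) and ELP had 71 and 12 (against 51.2 and 11.2%). Without Glc 1, NELP had 27 and 13 (against 27.0 and 6.54%) and ELP had 32 and 15 (against 36.7 and 9.77%). Leaving out NELP 1, NELP 2, NELP 3 or ELP 2 lowered the number above Glc in NELP to 13, 12, 19 or 17 (against 13.1, 8.69, 15.4 and 18.6% of all genes), and leaving out ELP 2 lowered that in ELP to 28 (against 23.5%). The number below Glc was 1 in NELP without NELP 1 or NELP 3 (against 1.79 and 1.75%) and 3 in ELP without ELP 1 (against 3.1%). With only NELP and Glc in the fit, 10 P450 genes were higher (against 7.79% of all genes) and 1 was lower (against 1.12%), and with only ELP and Glc, 24 were higher (against 17.4%) and 3 lower (against 2.25%). Weights that let each medium have its own spread left few calls against Glc, with 2 P450 genes higher (against 0.682%) and 0 lower (against 0.209%) in NELP, and 0 higher (against 0.482%) and 1 lower (against 0.164%) in ELP. Unadjusted, at p under 0.05 in the fit without weights, limma gave 39 higher and 6 lower in NELP (against 41.4 and 5.76% of all genes) and 48 higher and 7 lower in ELP (against 45.6 and 7.27%).

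**Figure D2:**
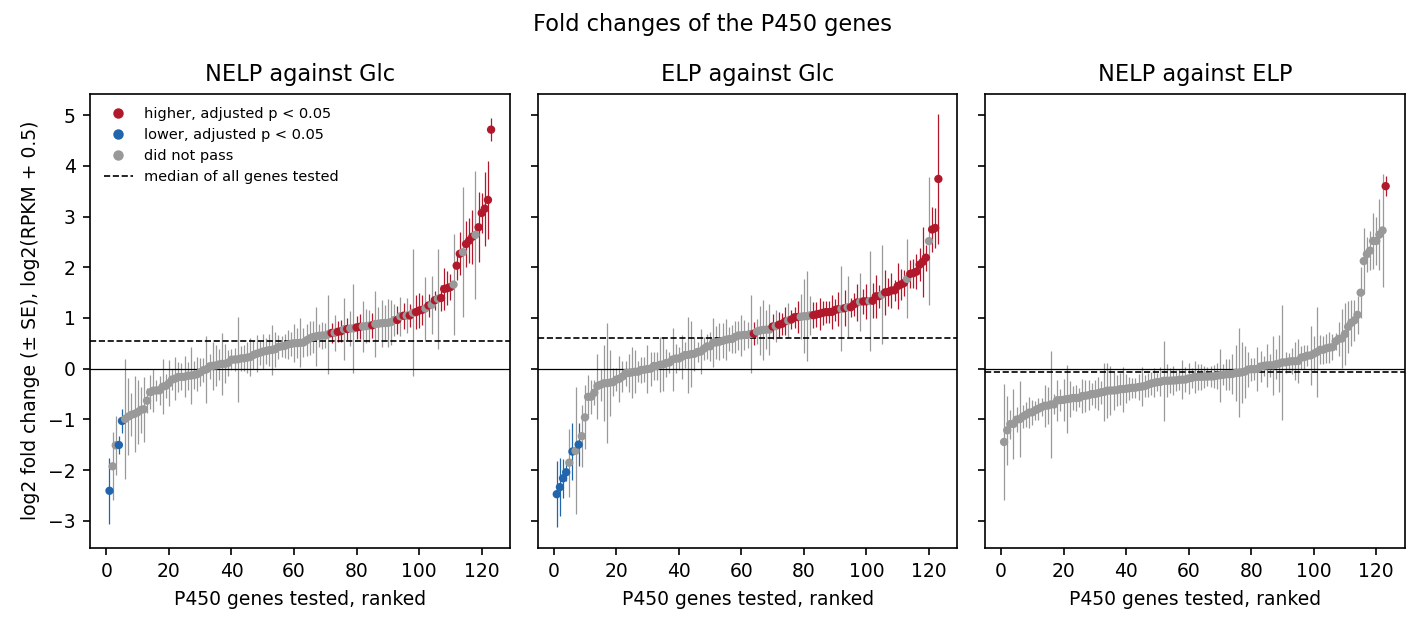
Log2 fold change with its standard error for the 123 P450 genes tested, ranked within each comparison; red and blue points passed as higher and lower, grey points did not pass, and the dashed line is the median of all genes tested. The dashed lines stand at 0.54 for NELP against Glc, at 0.60 for ELP against Glc and at -0.07 for NELP against ELP, the first pair of them at -0.03 after median-ratio scaling, and Phlgi1_20514 was the only point that passed between both wood media.

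Classed by these 3 comparisons, 26 genes were higher in both wood media than in Glc (21.1%, against 24.5% of all genes tested), 1 of which was also higher in NELP than in ELP. A further 17 passed only as higher in ELP than in Glc (13.8%, against 12.8%) and 4 only as higher in NELP than in Glc (3.25%, against 5.03%). The genes lower than in Glc were 2 in both wood media (against 2.73% of all genes), 4 in ELP only (against 2.41%) and 1 in NELP only (against 0.946%), and 69 of the 123 passed in no comparison (56.1%, against 51.6%). The 26 became 5 after scaling (4.07%, against 4.79%) and 7 with only the media compared in each fit (5.69%, against 6.09%). NELP and ELP share the Glc libraries, so these classes are not independent of one another, and passing in one wood medium alone does not show that the media differed. The 26 genes had a median mean of 14.6 RPKM in NELP, 18.4 RPKM in ELP and 7.60 RPKM in Glc.

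Among the genes higher on both kinds of wood, Phlgi1_62450 (CYP5156A, no known role) was the most abundant P450 in NELP. It had 379, 502 and 551 RPKM in NELP, 385, 340.3 and 434 RPKM in ELP, and 33.8 and 91.6 RPKM in Glc. All wood libraries stood above both Glc libraries. The log2 fold change was 3.07 ± 0.40 (SE, adjusted p = 0.0043) for NELP and 2.77 ± 0.40 (adjusted p = 0.0036) for ELP, both also past the threshold after median-ratio scaling. Phlgi1_82290, which is not among the 24, had 294, 369.7 and 398 RPKM in NELP, 152, 199.6 and 344 RPKM in ELP, and 20.0 and 126 RPKM in Glc. Its log2 fold changes were 2.79 ± 0.69 in NELP (adjusted p = 0.022) and 2.11 ± 0.69 in ELP (adjusted p = 0.042), and the Glc libraries differed 6.29-fold. Neither call of Phlgi1_82290 was kept after scaling (adjusted p = 0.063 for NELP, 0.14 for ELP). Leaving out any single NELP library ended the call in NELP (adjusted p 0.055 to 0.07), and leaving out any library but Glc 2 ended that in ELP, where the log2 fold change was 0.80 without Glc 1 (adjusted p = 0.15). Phlgi1_131188 (CYP5154NS, no known role) was steadier, with 170.2, 188 and 167 RPKM in NELP, 196, 191 and 208 RPKM in ELP, and 59.3 and 90.8 RPKM in Glc. It rose by 1.25 ± 0.23 in NELP (adjusted p = 0.0095) and by 1.43 ± 0.23 in ELP (adjusted p = 0.0046), and after scaling kept only the call in ELP (adjusted p = 0.027, against 0.059 in NELP).

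At lower levels the same pattern was clear in 2 genes outside those 24. Phlgi1_100824 had 51.7, 47.7 and 44.1 RPKM in NELP, 34.0, 51.1 and 98.8 RPKM in ELP, and 5.91 and 10.4 RPKM in Glc, with log2 fold changes of 2.53 ± 0.44 in NELP (adjusted p = 0.008) and 2.75 ± 0.44 in ELP (adjusted p = 0.0045). Phlgi1_26261 had 7.04, 8.17 and 7.22 RPKM in NELP, 11.6, 10.4 and 12.3 RPKM in ELP, and 1.503 and 2.896 RPKM in Glc, and rose by 1.61 ± 0.26 in NELP (adjusted p = 0.0069) and 2.19 ± 0.26 in ELP (adjusted p = 0.0023). Both genes kept both calls after scaling and without any single library, and their wood and Glc libraries did not overlap. Of the 5 genes of triterpenoid families, 2 were higher in NELP and 3 in ELP than in Glc, where 29.5% and 37.3% of all genes tested were. After scaling 1 was higher in each (against 6.61 and 10.8%). One of them, Phlgi1_25626 (CYP5144C), had 60.1, 46.8 and 33.2 RPKM in NELP, 88.8, 94.0 and 75.5 RPKM in ELP, and 23.7 and 22.5 RPKM in Glc, a log2 rise of 0.96 ± 0.27 in NELP (adjusted p = 0.032, and 0.37 after scaling) and 1.87 ± 0.27 in ELP (adjusted p = 0.0037). The call in NELP also ended without NELP 1, NELP 2, ELP 1 or ELP 2 (adjusted p 0.053 to 0.097). The other CYP5144C gene, Phlgi1_62333, averaged 6.91 ± 1.71 RPKM in NELP, 9.23 ± 2.13 RPKM in ELP (SD, n = 3 each) and 4.36 ± 1.59 RPKM in Glc (SD, n = 2). It passed in ELP only (log2 fold change 1.02 ± 0.32, adjusted p = 0.036), and not after scaling (adjusted p = 0.31) or without any single ELP library (0.051 to 0.11), NELP 1 (0.058), NELP 2 (0.055) or Glc 1 (0.13).

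**Figure D3:**
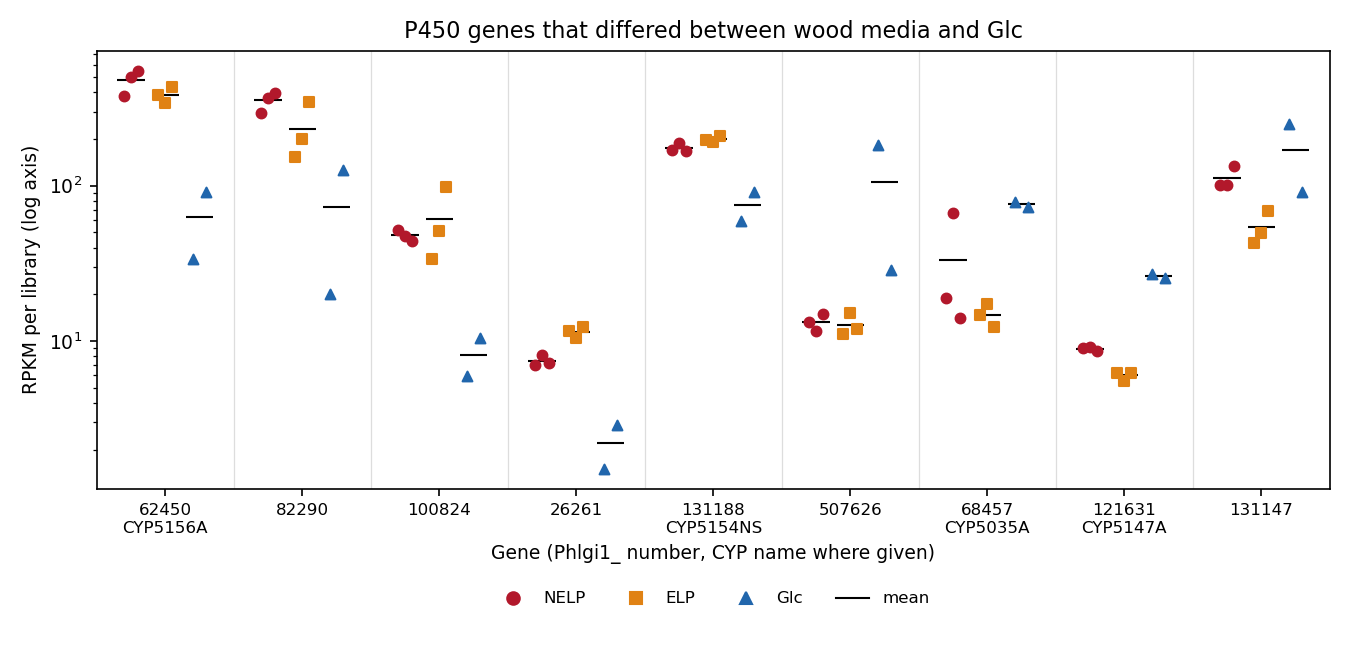
RPKM per library (log axis) of 9 P450 genes that differed between a wood medium and Glc; points are libraries, 3 NELP, 3 ELP and 2 Glc, and bars are means. The first 5 genes had every wood library above both Glc libraries, and the next 3 had every wood library below them, while Phlgi1_131147 was below Glc in ELP but overlapped it in NELP.

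Before scaling, few P450 genes passed as more abundant on glucose, as held for all genes. They were 3 against NELP and 6 against ELP (2.44 and 4.88%, against 3.67 and 5.14% of all genes tested). After median-ratio scaling they were 7 and 10 (5.69 and 8.13%, against 6.96 and 11.4%). Phlgi1_121631 (CYP5147A, a family known for steroid hydroxylation) had 9.02, 9.11 and 8.68 RPKM in NELP, 6.24, 5.55 and 6.24 RPKM in ELP, and 27.1 and 25.5 RPKM in Glc. It fell by 1.51 ± 0.18 on the log2 scale in NELP (adjusted p = 0.0033) and by 2.04 ± 0.18 in ELP (adjusted p = 0.00099), and replicates of each medium lay within 1.12-fold of one another. Phlgi1_507626, not among the 24, had 13.2, 11.7 and 15.0 RPKM in NELP, 11.0, 15.2 and 12.0 RPKM in ELP, and 183 and 28.5 RPKM in Glc. It was lower in both wood media (log2 fold change -2.41 ± 0.65 and adjusted p = 0.028 in NELP, -2.48 ± 0.65 and adjusted p = 0.019 in ELP), with most of the Glc mean in Glc 1. Without Glc 1 the log2 fold changes were -1.08 in NELP (adjusted p = 0.017) and -1.15 in ELP (0.0099). The call in NELP ended without any single NELP library or ELP 2 (adjusted p 0.05 to 0.085), and that in ELP without ELP 1 (0.059). Phlgi1_68457 (CYP5035A, flavone hydroxylation) had 19.0, 67.2 and 14.2 RPKM in NELP, 14.6, 17.4 and 12.4 RPKM in ELP, and 78.7 and 73.4 RPKM in Glc. It fell by 2.34 ± 0.58 in ELP (adjusted p = 0.016), while NELP 2 stood close to Glc and the log2 fold change of -1.51 ± 0.58 in NELP did not pass (adjusted p = 0.077).

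Ergosterol synthesis was represented by Phlgi1_131147, annotated as P450 61, the enzyme that introduces the side-chain double bond of ergosterol in yeast. It had the highest mean of the family on glucose, through Glc 1, with 101, 101 and 135 RPKM in NELP, 43.1, 49.9 and 69.3 RPKM in ELP, and 248 and 91.2 RPKM in Glc. It fell by 1.497 ± 0.42 on the log2 scale in ELP relative to Glc (adjusted p = 0.025), a call that ended without ELP 1, ELP 2 or Glc 1 (adjusted p 0.069 to 0.076, with a log2 fold change of -0.78 without Glc 1), while NELP and Glc overlapped. Phlgi1_103554 was the gene lower in NELP only, with 8.16, 9.14 and 8.10 RPKM in NELP, 15.7, 19.5 and 15.3 RPKM in ELP, and 22.2 and 14.3 RPKM in Glc (log2 fold change -1.03 ± 0.24, adjusted p = 0.019). Its call ended without any single NELP library (adjusted p 0.058 to 0.06).

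NELP was compared with ELP to ask which P450 genes responded to the extractives of pine. In the fit over all 3 media, 1 P450 gene was higher in NELP (0.813%, against 0.00909% of all genes tested) and 0 were lower (against 0.0%). Median-ratio scaling gave 1 and 0 as well (against 0.0273 and 0.0% of all genes). Without adjustment, 12 P450 genes were higher and 13 lower in NELP at p under 0.05 in limma (9.76 and 10.6%, against 7.23 and 9.12% of all genes). The gene that passed, Phlgi1_20514 (CYP512B, a triterpenoid family), was the single one of all 10999 genes tested to do so. Its deposited function name reads CYP503 instead, and which family name holds was not examined. It had 324, 389.8 and 394 RPKM in NELP, 30.8, 32.1 and 27.1 RPKM in ELP, and 11.5 and 15.9 RPKM in Glc. The media did not overlap and replicates lay within 1.38-fold of one another, with NELP above ELP by 3.60 ± 0.20 on the log2 scale (adjusted p = 0.0012) and above Glc by 4.71 ± 0.22 (adjusted p = 0.00012). These calls were kept under each alternative tried. The smaller difference between ELP and Glc (1.11 ± 0.22, adjusted p = 0.008) was not kept after scaling (adjusted p = 0.12).

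The fit over 3 media takes its spread in part from Glc, where the median standard deviation of a P450 gene on the log2 scale was 0.571, against 0.231 in NELP and 0.216 in ELP. With NELP and ELP fitted alone, 10 P450 genes were higher in NELP (8.13%, against 6.12% of all genes tested) and 13 were lower (10.6%, against 4.28%). All 23 had libraries that did not overlap. Weights per medium gave 11 higher (against 7.07%) and 15 lower (against 6.29%). Leaving out Glc 1 or Glc 2 takes the spread of Glc out of the fit, so this comparison then repeats the fit of NELP and ELP alone. Over all P450 genes tested, libraries did not overlap for 16 with higher values in NELP (13%, against 16.7% of all genes) and for 36 with lower values (29.3%, against 22.1%). The calls of the fit with NELP and ELP alone were uneven in size. Their log2 fold changes ran from 0.54 to 3.60 among the 10 genes that were higher, 7 of them CYP-named, and from -1.22 to -0.58 among the 13 that were lower, 3 of them CYP-named. Every NELP library was sequenced more deeply than every ELP library, at relative depths of 1 to 1.79 in NELP against 0.584 to 0.706 in ELP, and the part of depth in these calls was not tested.

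Of the genes named for the oxidation of foreign compounds, all 6 had positive fold changes between NELP and ELP, the lowest 0.12 ± 1.13 in Phlgi1_119938. Their median was 2.29 on the log2 scale, against -0.07 for all genes tested. Against Glc, 3 of them passed as higher in NELP (against 29.5% of all genes), with a median of 2.45 against 0.54. After scaling 1 did, and with NELP and Glc alone 1 did. In ELP 0 were higher (against 37.3%) and 1 was lower (against 5.14%), with a median of 0.31 against 0.60. These counts are not independent evidence if the study chose the genes on these libraries. They also depend on the grouping made here, which took in Phlgi1_75338, listed by the study for benzoate breakdown or detoxification. Left in other groups were Phlgi1_114194, listed for a coumarin, and Phlgi1_62333, listed for polycyclic aromatics besides triterpenoids. Both had lower means in NELP than in ELP (17.9 against 42.1 RPKM and 6.91 against 9.23 RPKM). Phlgi1_75338 (CYP53C, a benzoate hydroxylase family) had 9.26, 20.9 and 7.09 RPKM in NELP, 1.52, 2.01 and 1.98 RPKM in ELP, and 2.44 and 1.498 RPKM in Glc. It was higher in NELP than in Glc by 2.27 ± 0.43 (adjusted p = 0.0099, and 0.051 with NELP and Glc alone), and than in ELP by 2.33 (adjusted p = 0.086 over 3 media and 0.017 with NELP and ELP alone). ELP and Glc overlapped for this gene.

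Phlgi1_19184 (CYP5136A, known in *Phanerochaete* for oxidizing polycyclic aromatics and alkylphenols) differed from that pattern in Glc. It had 103, 77.8 and 122 RPKM in NELP, 14.3, 25.6 and 22.9 RPKM in ELP, and 132 and 65.3 RPKM in Glc, so that NELP and Glc overlapped and ELP alone was low. ELP was below Glc by a log2 fold change of -2.16 ± 0.38 (adjusted p = 0.0058), and NELP was above ELP by 2.26 (adjusted p = 0.065 over 3 media and 0.0084 with NELP and ELP alone).

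The CYP5150 genes, of a family known to hydroxylate propylbenzoic acid, had their highest means in NELP, with the CYP5150A genes uneven among its cultures and CYP5150B uneven in ELP. Phlgi1_20511 (CYP5150A) had 138, 341 and 107 RPKM in NELP, 17.1, 25.5 and 58.9 RPKM in ELP, and 92.1 and 61.4 RPKM in Glc, and did not pass over 3 media in any comparison (NELP over ELP 2.52 ± 0.55, adjusted p = 0.12, and 0.035 with NELP and ELP alone). Its neighbour Phlgi1_122687, also CYP5150A, had 23.0, 72.0 and 8.59 RPKM in NELP, 6.33, 4.46 and 5.04 RPKM in ELP, and 2.90 and 1.8 RPKM in Glc. Phlgi1_89373 (CYP5150B) had 58.0, 40.9 and 58.5 RPKM in NELP, 2.66, 6.21 and 27.1 RPKM in ELP, and 5.89 and 3.74 RPKM in Glc. Both CYP5150A genes were highest in NELP 2, and CYP5150B was not. Against Glc, Phlgi1_122687 was higher in NELP by 3.16 ± 0.73 (adjusted p = 0.018) and Phlgi1_89373 by 3.33 ± 0.77 (adjusted p = 0.018). The first call ended without NELP 1 (adjusted p = 0.052), and the second without any single NELP library (0.052 to 0.056). Both ended after scaling (0.05 and 0.059). Neither gene passed between NELP and ELP in either fit.

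**Figure D4:**
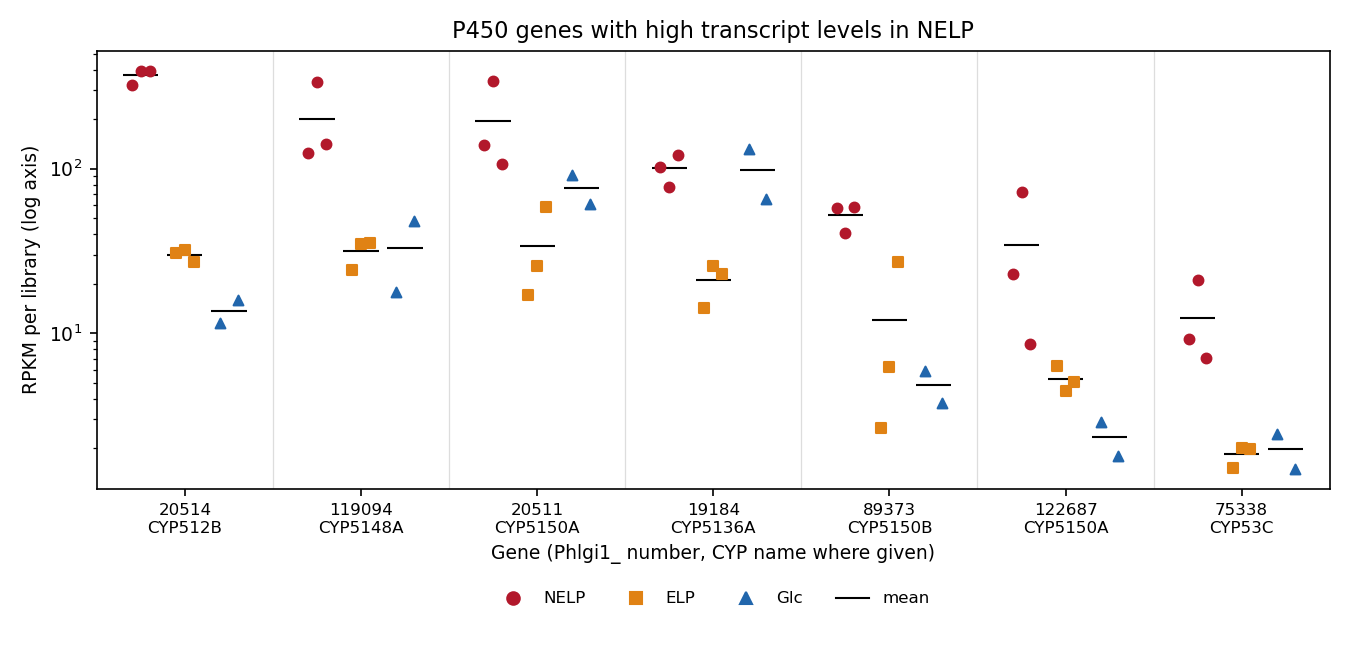
RPKM per library (log axis) of 7 CYP-named genes with high levels in NELP; points are libraries, 3 NELP, 3 ELP and 2 Glc, and bars are means. NELP lay above every ELP library in all 7 genes, and only Phlgi1_20514 has its replicates tight in all 3 media.

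Phlgi1_119094 (CYP5148A, no known role) followed NELP in the same way. It had 124, 335 and 140.5 RPKM in NELP, 24.3, 34.8 and 35.2 RPKM in ELP, and 17.8 and 47.8 RPKM in Glc, a log2 fold change of 2.60 ± 0.53 over Glc (adjusted p = 0.013, and 0.055 with NELP and Glc alone) and of 2.52 over ELP (adjusted p = 0.096 over 3 media and 0.016 with NELP and ELP alone). In the opposite direction, Phlgi1_114194 (CYP5037B, a family that dealkylates a coumarin) had 16.1, 19.9 and 17.6 RPKM in NELP, 38.4, 42.1 and 46.0 RPKM in ELP, and 11.3 and 105 RPKM in Glc. NELP was below ELP by a log2 fold change of -1.22 (adjusted p = 0.41 over 3 media and 0.009 with NELP and ELP alone), and the Glc libraries spanned both wood media. Phlgi1_374250 (CYP5146B, no known role) had 5.69, 5.33 and 4.62 RPKM in NELP, 11.3, 10.3 and 11.2 RPKM in ELP, and 3.91 and 7.65 RPKM in Glc. It was lower in NELP than in ELP in the fit of both alone (adjusted p = 0.013), and its rise of 0.93 ± 0.28 in ELP over Glc (adjusted p = 0.03) ended after scaling (0.35) and without any single ELP library (0.069 to 0.079), NELP 1 (0.05), NELP 2 (0.055) or Glc 1 (0.072).

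The remaining CYP-named genes gave few calls, and those depended on the processing. Phlgi1_98480 (CYP505D), the fused fatty acid hydroxylase, had 8.79, 11.3 and 11.7 RPKM in NELP, 15.8, 16.5 and 16.1 RPKM in ELP, and 17.2 and 5.79 RPKM in Glc, and did not pass in any comparison over 3 media. Of the oxylipin-forming CYP6001NS genes, Phlgi1_101881 had 4.10, 4.21 and 6.37 RPKM in NELP, 0.862, 2.52 and 1.10 RPKM in ELP, and 10.7 and 2.52 RPKM in Glc, a log2 fold change of -1.64 ± 0.57 for ELP over Glc (adjusted p = 0.049). That call ended under several alternatives, among them a pseudocount of 1 (adjusted p = 0.052) and leaving out any single library other than ELP 2 or Glc 2 (0.067 to 0.23, the highest without Glc 1). Phlgi1_37333 stayed under 1 RPKM in all 8 libraries and was not tested, as was Phlgi1_120295 (CYP5156NS), at 1.12 ± 0.199 RPKM in NELP, 0.506 ± 0.0530 RPKM in ELP (SD, n = 3 each) and 1.12 ± 0.229 RPKM in Glc (SD, n = 2). Phlgi1_121846 (CYP5144H) and Phlgi1_120534 (CYP512G), both of triterpenoid families, averaged 2.62 and 2.43 RPKM in NELP, 3.80 and 2.92 RPKM in ELP, and 4.59 and 2.11 RPKM in Glc, and neither passed. Phlgi1_35739 (CYP5154A) and Phlgi1_75427 (CYP5093NS), with no known role, had 34.2 and 4.48 RPKM in NELP, 43.8 and 4.98 RPKM in ELP, and 74.6 and 7.15 RPKM in Glc. They passed only after scaling, as lower in NELP (adjusted p = 0.035 and 0.026) and in ELP (0.049 and 0.025).

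Abundant P450 genes were among those that differed widely between replicate cultures. Phlgi1_129763, which is not among the 24, had 71.6, 92.8 and 297 RPKM in NELP, 57.9, 405 and 1710.3 RPKM in ELP, and 16.0 and 39.4 RPKM in Glc. Phlgi1_119938 (CYP5139A, known for oxidizing naphthalene) had 116, 114 and 242 RPKM in NELP, 22.2, 151 and 726 RPKM in ELP, and 12.8 and 42.1 RPKM in Glc. Both were highest in ELP 3, 29.6-fold and 32.6-fold above the lowest ELP library. Phlgi1_129763 passed in ELP over Glc (3.74 ± 1.28, adjusted p = 0.047), but not without ELP 3 (2.58, adjusted p = 0.096), ELP 2, Glc 1 or any single NELP library (0.056 to 0.15), and not after scaling (0.12). Phlgi1_119938 passed in no comparison.

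Such spread was counted over P450 genes that averaged 10 RPKM or more in a medium, and its difference from other genes was not tested. In NELP, the highest library was more than 2-fold above the lowest in 10 of 64 P450 genes (15.6%, against 5.01% of all genes tested at that level). In ELP this held for 8 of 69 (11.6%, against 8.36%), all 8 with ELP 3 highest (217 of the 693 among all genes), and in Glc for 32 of 53 (60.4%, against 34.8%). In NELP, 7 of the 10 were highest in NELP 2 (112 of the 411 among all genes). A more than 4-fold range was seen in 3 P450 genes in NELP (4.69%, against 0.475% of all genes), 4 in ELP (5.8%, against 1.05%) and 14 in Glc (26.4%, against 12.5%). Among the widest in Glc at that level were Phlgi1_105055, at 3.28 and 115 RPKM, and Phlgi1_19678, at 1.18 and 29.9 RPKM, both higher in Glc 2, while Phlgi1_507626 was higher in Glc 1. Phlgi1_148405, with a mean of 8.34 RPKM in Glc and so outside this count, had 0.449 and 16.2 RPKM there.

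**Figure D5:**
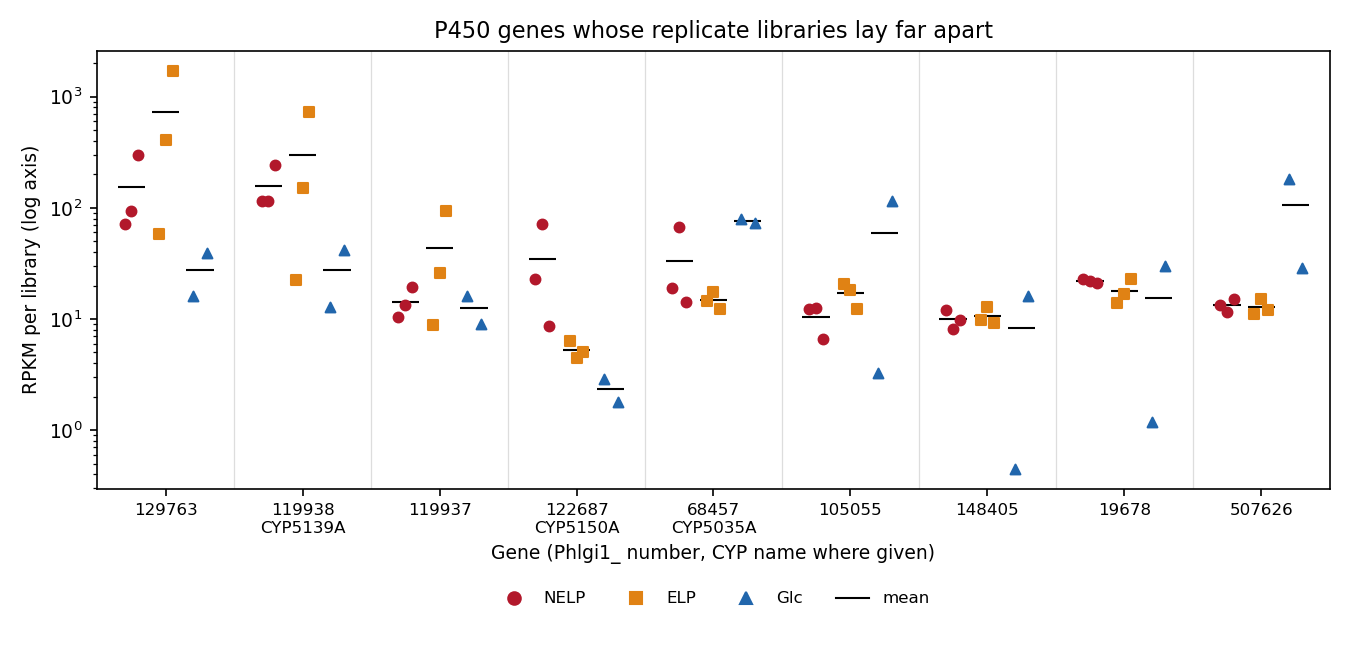
RPKM per library (log axis) of 9 P450 genes, chosen after their values were seen, whose replicate libraries lay far apart; points are libraries, 3 NELP, 3 ELP and 2 Glc, and bars are means. Phlgi1_129763 and Phlgi1_119938 ranged 29.6-fold and 32.6-fold within ELP, and Phlgi1_148405 ranged 36.2-fold between the Glc libraries.

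Many P450 genes lay side by side in the genome. Of 133 genes placed by their locus tag on the Phlgi1 assembly, 56 were within 10 kb of another, in 25 runs of which 20 were pairs, 4 held 3 genes and 1 held 4, and 19 neighbours had no other gene between them. In 2 runs every gene was higher than in Glc in at least 1 wood medium, in 16 runs some but not every gene was, and in 7 runs none was. Over all genes tested, 24.5% were higher in both wood media, 12.8% in ELP only and 5.03% in NELP only. Runs of other genes were not counted, so these numbers do not set neighbouring P450 genes apart. In no run did all genes share a class that had passed. Adjacent to Phlgi1_75338, which was high in NELP, Phlgi1_31183 had 25.2, 44.5 and 28.1 RPKM in NELP, 38.2, 35.5 and 38.5 RPKM in ELP, and 31.2 and 38.3 RPKM in Glc. In the run of 4, Phlgi1_130320 and Phlgi1_26261 were higher in both wood media, while Phlgi1_130322 and Phlgi1_121846 passed in no comparison.

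Other neighbours shared the behaviour of single libraries. Phlgi1_119937, next to Phlgi1_119938, had 10.4, 13.3 and 19.2 RPKM in NELP, 8.80, 26.1 and 94.4 RPKM in ELP, and 16.2 and 9.10 RPKM in Glc, with ELP 3 highest in both genes. The third gene of that run, Phlgi1_119933, lay between 81.7 and 116 RPKM in NELP, between 102 and 158 RPKM in ELP and at 39.2 and 35.9 RPKM in Glc, and was higher in both wood media (log2 fold change 1.39 ± 0.26 and adjusted p = 0.0097 in NELP, 1.69 ± 0.26 and adjusted p = 0.0042 in ELP, and 0.1 and 0.04 after scaling). Phlgi1_148405 and Phlgi1_19678, the genes that were low in Glc 1, were adjacent too, as were Phlgi1_20511 and Phlgi1_122687, both highest in NELP 2. Adjacent P450 genes can be close copies, and the sources used here do not say how reads that match several genes were counted.

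Among partners of the P450s, 22 genes carried a cytochrome b5 domain or, in 1 of them, that of a cytochrome b5 reductase. For NELP over Glc, 5 of them passed as higher and 1 as lower (median log2 fold change 0.31), and for ELP over Glc 7 passed as higher and 1 as lower (median 0.57). The shares over all genes tested were 29.5% for NELP and 37.3% for ELP, which 5 and 7 of 22 do not exceed. Of all genes tested, 3.67% were lower in NELP and 5.14% in ELP. After median-ratio scaling 1 of the 22 was higher and 2 lower in NELP (median -0.28, against 6.61 and 6.96% of all genes). In ELP 1 was higher and 3 lower (median -0.09, against 10.8 and 11.4%). Several of the genes that passed bear the domain within another enzyme: Phlgi1_496512, annotated as a nitrate reductase, averaged 26.0 RPKM in NELP, 30.6 RPKM in ELP and 5.22 RPKM in Glc, and Phlgi1_23904, named as a lactate dehydrogenase, averaged 24.2 RPKM in NELP, 25.1 RPKM in ELP and 96.1 RPKM in Glc. The first rose in both wood media (adjusted p = 0.005 for NELP, 0.0028 for ELP) and the second fell in both (0.017 and 0.014). Phlgi1_93905 and Phlgi1_94732, with no other name, and Phlgi1_124991, a glycolate oxidase, rose in both wood media, the chitin synthase Phlgi1_69639 in NELP, and the isovaleryl-CoA dehydrogenase Phlgi1_18086, the acyl-CoA dehydrogenase Phlgi1_91676 and the glycolate oxidase Phlgi1_28033 in ELP. None of the calls of these 7 genes was kept after scaling (adjusted p 0.061 to 0.42 where NELP had passed, 0.12 to 0.43 where ELP had), whereas Phlgi1_496512 and Phlgi1_23904 kept both of theirs. The list thus mixes possible donors of P450s with other enzymes.

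A further 7 reductases were found by their enzyme names after the annotation had been read, 5 of them named as the NADPH-dependent reductase that serves P450s and 2 as cytochrome b5 reductase. In each wood medium, 2 of the 7 passed as higher than in Glc (against 29.5% of all genes tested in NELP and 37.3% in ELP) and 0 as lower (against 3.67 and 5.14%). Phlgi1_128913, Phlgi1_25680, Phlgi1_30348 and Phlgi1_500021 did not pass against Glc (adjusted p 0.2 to 0.86 in NELP, 0.34 to 0.96 in ELP). The NADPH-dependent Phlgi1_32544 had 17.7, 20.7 and 15.4 RPKM in NELP, 23.2, 20.1 and 24.02 RPKM in ELP, and 8.43 and 9.17 RPKM in Glc, and rose by 0.98 ± 0.21 in NELP (adjusted p = 0.014) and 1.30 ± 0.21 in ELP (adjusted p = 0.0046). The cytochrome b5 reductase Phlgi1_20004 also rose in both (adjusted p = 0.028 for NELP, 0.0057 for ELP), with means of 103 RPKM in NELP, 159.5 RPKM in ELP and 47.6 RPKM in Glc. After scaling, each kept only its call in ELP (adjusted p = 0.045 and 0.048). Phlgi1_130514, again named as the NADPH-dependent reductase, had 23.5, 38.4 and 99.0 RPKM in NELP, 17.8, 182 and 1933 RPKM in ELP, and 12.5 and 7.54 RPKM in Glc. It did not pass (adjusted p = 0.071 in ELP against Glc), and its libraries had the order of Phlgi1_129763 in NELP and in ELP, with ELP 3 far above the rest.

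Heme is the cofactor of every P450. Of 9 genes named for its synthesis, 1 of which (Phlgi1_45410) is named for a methyltransferase that leads to siroheme instead, the decarboxylase Phlgi1_18220 and the synthase Phlgi1_30350 of uroporphyrinogen passed as higher in both wood media (of all genes tested, 29.5% did so in NELP and 37.3% in ELP). Neither kept a call after scaling (adjusted p = 0.088 and 0.62 for NELP, 0.13 and 0.34 for ELP), and without any single NELP library 0 of the 9 passed as higher in NELP. Transcripts of Phlgi1_120646, Phlgi1_45410 and Phlgi1_105082, a coproporphyrinogen oxidase, passed as lower in ELP (against 5.14% of all genes tested). They also passed after scaling (against 11.4%), and without any single NELP or ELP library 2 genes of the list passed as lower. In Glc, Phlgi1_45410 had 47.4 and 14.2 RPKM and Phlgi1_105082 had 129.8 and 34.8 RPKM, both higher in Glc 1. Neither of them passed with ELP and Glc alone (adjusted p = 0.11 and 0.053). The protoporphyrinogen oxidase Phlgi1_120646 had 7.12, 4.52 and 6.25 RPKM in NELP, 1.24, 1.66 and 1.58 RPKM in ELP, and 3.27 and 7.001 RPKM in Glc. It was lower in ELP than in Glc (log2 fold change -1.42 ± 0.33, adjusted p = 0.013), and higher in NELP than in ELP by 1.68 (adjusted p = 0.086 over 3 media and 0.0084 with NELP and ELP alone).

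Epoxide hydrolases open the epoxides that P450s can form. The list held 16 genes, of which only Phlgi1_123273 and Phlgi1_123272 had that function name. The rest were found by an InterPro description of that kind, shared with haloacid dehydrogenases in Phlgi1_96511, Phlgi1_102362 and Phlgi1_80369. The list may thus hold other enzymes. Of the 16 genes, 15 were tested. For NELP over Glc 3 passed as higher and 2 as lower, and for ELP over Glc 6 passed as higher and 2 as lower. Against the 29.5% of all genes tested in NELP, 3 of 15 is the smaller share, and 6 of 15 lies near the 37.3% in ELP. The 2 lower genes stand against 3.67% of all genes in NELP and 5.14% in ELP. After scaling 3 passed as higher and 2 as lower in each wood medium. Of all genes, 6.61 and 6.96% did so in NELP, and 10.8 and 11.4% in ELP. Phlgi1_123273 had 158, 120.1 and 141 RPKM in NELP, 46.9, 96.4 and 314 RPKM in ELP, and 7.03 and 14.3 RPKM in Glc, a rise of 3.72 ± 0.70 in NELP (adjusted p = 0.0098) and 3.42 ± 0.70 in ELP (adjusted p = 0.0086). It too was highest in ELP 3 among the ELP libraries, and wood and Glc did not overlap. Phlgi1_89746, called hypothetical and listed by its InterPro description alone, was the reverse. It had 86.6, 84.5 and 53.0 RPKM in NELP, 50.1, 58.9 and 40.2 RPKM in ELP, and 316 and 290.2 RPKM in Glc, and fell by 2.05 ± 0.28 in NELP (adjusted p = 0.0049) and 2.61 ± 0.28 in ELP (adjusted p = 0.0021).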

How the data were processed

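RNA of 8 *P. gigantea* cultures (3 NELP, 3 ELP, 2 Glc) was sequenced by the authors as TruSeq poly-A libraries on an Illumina HiSeq2000, after base calling with CASAVA 1.8.2 per the submitters' processing notes. The deposited RPKM values were made by the authors with SeqNGen and QSeq (DNAStar), which divide each gene's reads by its length and by the library total. The sources used here state no read totals. Relative depths, read from the steps between low values, were 1, 1.47 and 1.79 (NELP), 0.584, 0.706 and 0.684 (ELP) and 0.773 and 1.38 (Glc), so low values in ELP are the least precise.

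Values were tested as log2(RPKM + 0.5), a scale that understates changes of low genes, using limma 3.58.1 (R 4.3.3). A single fit held all 3 media, and p-values were adjusted by Benjamini-Hochberg over the 10999 genes averaging 1 RPKM or more. The fit was also run on simulated data that had the same spread in all media for each gene, which cannot test the effect of the wider spread of Glc. Named genes were the 24 with a CYP name, the 5 largest changes per comparison and direction (passed, at least 10 RPKM in the higher medium, no overlap), the 5 highest means and the donors that passed; genes named beyond these were chosen after their values were seen. Neighbours came from RefSeq locus tags of the Phlgi1 assembly, whose numbers match 11825 of the 11892 models. Members and lists were chosen with earlier results of these data known. Alternatives were a pseudocount of 1 or 0.1, no filter or one of 5 RPKM, median-ratio scaling, fits of the media compared alone, weights per medium, a replicate block and leaving out each library. No sequences were used here.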

Additional observations from a re-analysis of the deposited data

How the results depend on the processing

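The counts of P450 genes that passed depended on the scaling and on Glc. For NELP against Glc the main 30 higher and 3 lower became 9 and 7 after median-ratio scaling, 10 and 1 with both media alone, 2 and 0 with weights per medium, and 12 to 67 and 1 to 13 when single libraries were left out. For ELP against Glc the main 43 and 6 became 12 and 10 after scaling, 24 and 3 with both media alone, 0 and 1 with weights per medium, and 28 to 71 and 3 to 15 without single libraries. For NELP against ELP the main 1 and 0 became 10 and 13 with both media alone and 11 and 15 with weights per medium. Leaving out Glc 1 or Glc 2 is no separate alternative for this comparison, since it repeats the fit with both media alone. The medians over the P450 genes became -0.039 (NELP) and 0.066 (ELP) after scaling, and the summed RPKM became 4042 in NELP 2, 3393 in Glc 1 and 3142 in Glc 2. Other pseudocounts and filters left these counts within 1.5 times.

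NELP and ELP share replicate numbers, but deviations of equal numbers correlated at 0.40, -0.15 and 0.50, and ELP 2 correlated best with NELP 1, so the libraries were treated as unpaired. A replicate block gave 26 higher and 1 lower P450 genes in NELP and 39 and 5 in ELP against Glc, and 1 and 0 for NELP against ELP. Shares over all genes are not given for the block, so these counts show only how far the main counts moved.

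Of 31 calls of named P450 genes, 4 were kept under all 16 alternatives and 0 reversed: Phlgi1_20514 in NELP against both other media, Phlgi1_62450 in NELP and Phlgi1_121631 in ELP against Glc. Weights per medium ended 27 of the 31. The calls of the partner lists ranged from 0 to 11 higher (donors in NELP against Glc) over the alternatives. With 2 Glc libraries, a gene that differs between them cannot be placed.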
